A study of Mus musculus with 14 samples.

Results

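In 14 mouse samples profiled by MBD-seq, 225 regions on chromosomes 1 to 19 held a methylation peak of all 8 iPS cell clones and of none of the 3 ES cell lines. These iPS+ES- regions were selected on the peak lists themselves. Peaks of all 14 samples that shared at least 1 bp were merged into 147237 regions, of which 47835 held a peak of all 8 iPS clones, and the regions without an ES peak were then divided by the number of MEF cultures with a peak. The selection therefore fixed the contrast of iPS with ES cells, which is described below and not tested. Of the 225 regions, 192 held no MEF peak (new in iPS cells) and 24 held a peak of 1 MEF culture. A further 5 held peaks of 2 cultures and 4 of all 3 cultures (kept from fibroblasts). The names in brackets rest on peak calls alone, not on levels, and on Aid+/+ MEFs also for the Aid-/- clones.

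The 8 iPS clones, 4 Aid+/+ and 4 Aid-/- (Aid disrupted), carried a Nanog-GFP reporter on a mixed C57BL6, DBA and 129S4 background. They were male and at passage 6. They were grown on gelatin with LIF and 2 µg/mL puromycin in the medium, above the dose in the study's methods for feeder culture. They had been picked as colonies after MEFs were infected with retroviruses for the reprogramming factors Oct3/4 (Pou5f1), Sox2, Klf4 and, in part of the study's experiments, c-Myc (Myc), so that every clone carries extra copies of factor cDNAs. Which clones received c-Myc is not given in the sources used here. The 3 MEF cultures were Aid+/+, male, at passage 3 and of the same background and reporter. The ES lines differed from them and from one another in strain: RF8 (129SV in the labels and 129S4 in the study's methods, replicate 1), MG1.19 (129Ola, replicate 2) and B6 ES (C57BL6, replicate 3), the first 2 labelled male, none labelled with the reporter and all without puromycin. The ES group thus holds 1 line per strain, and strain, selection and cell type cannot be told apart in the contrast that chose the regions. The clone names fell into 3 series, the first with Aid+/+ replicates 1 and 2, the second with Aid+/+ replicates 3 and 4 and Aid-/- replicates 1 and 2, and the third with Aid-/- replicates 3 and 4. From retroviral integration patterns the study counted some sister clones as one, in a wording that leaves unclear whether Aid-/- replicates 3 and 4 were independent of each other. Peaks near the starts of marker genes were as follows: Nanog had a peak in 2 MEF cultures, Zfp42 in 3 and Dppa5a in 1, with none in iPS or ES cells, while Dppa3 had none in any sample. Pou5f1 went the other way, with a peak in all 8 iPS clones and in no ES line or MEF culture, at the region over its exon described with the factor genes. Tags of the retroviral cDNA and of the resident exon cannot be told apart there. The peak is therefore not read as methylation of the resident gene start. By pyrosequencing, the study found the promoter of this gene hypomethylated in iPS cells with and without Aid.

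DNA methylation is placed on cytosines in CpG pairs, and the methyl-CpG binding domain captures fragments that carry it, so that many tags at one place point to methylated DNA with enough CpGs to be bound. When a fibroblast is reprogrammed, the methylation of its genome is reset towards that of ES cells. Sites that remain different from ES cells are usually read as either kept from the starting cell or gained on the way. Aid encodes activation-induced cytidine deaminase, an enzyme that deaminates cytosine in DNA and that has been discussed as a route of DNA demethylation.

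Part of the iPS+ES- regions shared one repeated sequence. The 4 windows shown first belong to this family, described further down, and allow its members to be compared. Outside the family, Glis1, Pvrl3 and Vmn1r16 mark the strongest windows with no MEF peak once the factor exons are set aside, and the window over an exon of Acacb is one with peaks of all MEF cultures. Each is 300 bases around the median summit of the 8 clones, on NCBI build 37 (mm9), with CpGs in capitals.
Near Snap91, chr9:86836127-86836426, plus strand: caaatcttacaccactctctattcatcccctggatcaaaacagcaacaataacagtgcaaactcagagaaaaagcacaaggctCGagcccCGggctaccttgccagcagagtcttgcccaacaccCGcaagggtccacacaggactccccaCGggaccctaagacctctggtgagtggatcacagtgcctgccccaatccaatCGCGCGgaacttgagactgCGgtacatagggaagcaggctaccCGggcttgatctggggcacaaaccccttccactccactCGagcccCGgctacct
Near Steap4, chr5:7804938-7805237, plus strand: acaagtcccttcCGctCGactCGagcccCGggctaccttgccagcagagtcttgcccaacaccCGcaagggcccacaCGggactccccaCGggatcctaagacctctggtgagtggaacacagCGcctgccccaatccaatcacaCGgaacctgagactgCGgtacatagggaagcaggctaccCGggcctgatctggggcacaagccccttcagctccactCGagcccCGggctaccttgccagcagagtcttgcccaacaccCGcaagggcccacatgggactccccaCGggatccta
Near Snrpn, chr7:67052955-67053254, plus strand: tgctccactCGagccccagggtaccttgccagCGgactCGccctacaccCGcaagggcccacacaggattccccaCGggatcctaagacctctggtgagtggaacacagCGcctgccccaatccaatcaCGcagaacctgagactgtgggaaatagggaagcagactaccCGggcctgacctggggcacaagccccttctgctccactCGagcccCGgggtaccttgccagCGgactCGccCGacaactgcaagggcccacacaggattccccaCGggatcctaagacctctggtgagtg
Intron of Cacnb2, chr2:14845815-14846114, plus strand: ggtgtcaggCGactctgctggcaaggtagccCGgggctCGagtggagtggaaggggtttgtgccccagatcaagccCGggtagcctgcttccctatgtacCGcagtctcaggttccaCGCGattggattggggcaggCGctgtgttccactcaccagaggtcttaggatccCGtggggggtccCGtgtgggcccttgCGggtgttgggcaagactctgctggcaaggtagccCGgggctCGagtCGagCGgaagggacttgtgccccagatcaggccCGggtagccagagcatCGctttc
Exon of Glis1, chr4:107287492-107287791, plus strand: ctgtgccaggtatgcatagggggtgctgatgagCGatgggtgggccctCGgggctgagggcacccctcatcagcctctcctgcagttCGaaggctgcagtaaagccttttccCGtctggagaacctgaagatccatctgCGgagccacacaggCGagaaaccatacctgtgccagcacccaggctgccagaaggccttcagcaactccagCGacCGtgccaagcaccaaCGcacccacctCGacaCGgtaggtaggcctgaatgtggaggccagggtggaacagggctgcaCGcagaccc
Near Pvrl3, chr16:47188098-47188397, plus strand: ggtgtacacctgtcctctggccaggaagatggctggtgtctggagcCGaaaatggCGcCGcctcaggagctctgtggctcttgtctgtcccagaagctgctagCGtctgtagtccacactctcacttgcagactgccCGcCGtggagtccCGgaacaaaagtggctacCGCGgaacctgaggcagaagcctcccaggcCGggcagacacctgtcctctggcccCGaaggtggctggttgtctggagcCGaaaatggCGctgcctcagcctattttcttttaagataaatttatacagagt
Near Vmn1r16, chr6:57283799-57284098, plus strand: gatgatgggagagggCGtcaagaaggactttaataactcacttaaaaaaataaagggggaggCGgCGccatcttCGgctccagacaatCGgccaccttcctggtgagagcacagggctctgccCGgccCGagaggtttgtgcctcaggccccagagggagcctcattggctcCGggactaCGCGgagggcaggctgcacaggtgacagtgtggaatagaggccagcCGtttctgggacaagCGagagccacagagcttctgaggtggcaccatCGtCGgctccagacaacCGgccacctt
Exon of Acacb, chr5:114645204-114645503, plus strand: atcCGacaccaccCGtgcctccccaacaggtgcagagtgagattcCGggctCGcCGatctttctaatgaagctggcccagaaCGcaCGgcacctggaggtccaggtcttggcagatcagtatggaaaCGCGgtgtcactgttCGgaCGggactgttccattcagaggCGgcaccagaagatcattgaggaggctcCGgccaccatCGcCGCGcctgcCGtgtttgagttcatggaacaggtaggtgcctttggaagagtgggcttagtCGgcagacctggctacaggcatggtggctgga
These windows held 11 CpGs near Snap91, 15 near Steap4, 14 near Snrpn, 17 in Cacnb2, 12 in Glis1, 13 near Pvrl3, 15 near Vmn1r16 and 18 in Acacb. Over all 225 regions the median was 11 CpGs per window, the GC content 54.3% and the ratio of observed to expected CpGs 0.523. The same medians over all 47835 regions with 8 iPS peaks were 13 CpGs, 52.3% and 0.616. A ratio above 0.6 was found in 25.8% of iPS+ES- regions and in 54.0% of all regions, and in 66.7% of those with a peak of all 3 ES lines.

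The libraries held between 6654272 and 15916182 filtered tags in iPS clones, 10224266 and 15499529 in ES lines and 17513215 and 19603100 in MEFs. The number of peaks did not follow this depth. It lay between 65859 and 106408 in iPS clones, at 56045, 31650 and 101951 in ES replicates 1, 2 and 3, and between 33500 and 54953 in MEFs. ES replicate 3, the C57BL6 line, held a peak at 99.0% of the regions with 8 iPS peaks, against 74.8% and 48.1% for the 129 lines. Of the 10908 regions with 8 iPS peaks and 1 ES line, 10763 had it from ES replicate 3, 120 from replicate 1 and 25 from replicate 2. Without ES replicate 3 the rule gave 10996 regions in place of 225, and without ES replicate 1 it gave 345. It gave 382 without Aid+/+ replicate 1 and 400 without Aid-/- replicate 4. Just outside the rule lay 477 regions with 7 iPS clones and no ES line, 405 of them with no MEF peak. Aid-/- replicate 4 was the missing clone at 173 of these and Aid+/+ replicate 1 at 156. Among the iPS+ES- regions 36 had an ES peak within 1 kb, and the nearest ES peak lay at a median of 5.24 kb.

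Most iPS+ES- regions were weak peaks. MACS, the peak caller, scores a peak by 10 times the negative log10 of its p-value, with 50 as the threshold, and each region was ranked by the lowest score among its 8 iPS clones, the least score. Its median was 64.6 in the 225 regions. In regions with peaks of 1, 2 and 3 ES lines it was 98.0, 136 and 303. The weakest member had a least score of 50.05, 114 regions lay under 65, 19 above 100 and 3 above 200. The median fold enrichment over the local background, averaged over the 8 clones, was 14.8, against 21.3 over all regions with 8 iPS peaks, and the median number of tags per clone was 24.5 against 60.5. With least scores of 50 to 65, 2.67% of all regions with 8 iPS peaks were iPS+ES-, with 65 to 100 1.10%, with 100 to 200 0.119% and above 200 0.0137%. When the same number of most significant peaks (31650) was kept in every sample, 318 regions met the rule, and they overlapped only 2 of the 225. With iPS and MEF peaks kept at p of at most 1e-10 and all ES peaks retained, 19 regions were left. With peaks of all samples kept at that threshold, ES included, 203 regions met the rule, and they overlapped only 19 of the 225.

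**Figure D1:**
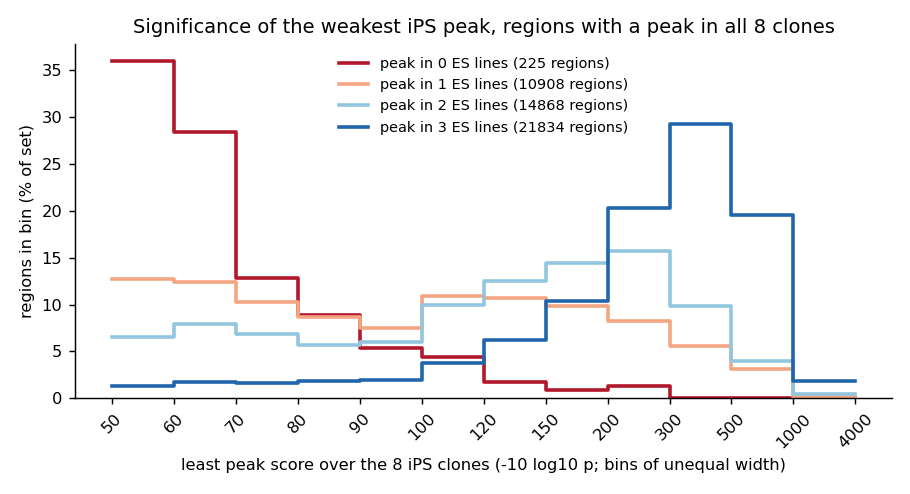
Distribution of the least score over the 8 iPS clones (x axis, 10 times the negative log10 of p, in bins of unequal width) as the share of regions in each bin (y axis, %), for regions with a peak in all 8 iPS clones and in 0, 1, 2 or 3 ES lines. The regions with no ES peak lie near the threshold, with 114 of 225 under a score of 65, and those with 3 ES lines have a median of 303.

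The level in the iPS+ES- regions also moved with the processing run, which is read from the MACS version and run name in the file headers. In the 4 clones of run A (Aid+/+ replicate 1, Aid-/- replicates 1, 2 and 4) the median fold enrichment of the 225 regions was 10.4, 12.5, 12.7 and 11.6. It was 15.8, 15.5 and 16.5 in run B (Aid+/+ replicates 2, 3 and 4) and 17.0 in run C (Aid-/- replicate 3). The runs did not overlap in this value. Over all regions with 8 iPS peaks they did, with 18.3 to 22.6 in run A and 19.2 to 22.6 in the other clones. All 3 ES lines belonged to run C, together with MEF replicate 1. Total tags before filtering also separated the clones by run. They were 24950886 to 28386827 in run A, 35696402 to 36919117 in run B and 31281996 in run C. Run and sequencing depth can therefore not be told apart here, and the part of either in the choice of regions was not tested.

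Most of the iPS+ES- regions had no peak in the fibroblasts. A peak in at least 1 MEF culture was found in 14.7% of them, against 63.8%, 76.2% and 93.0% of the regions with 8 iPS peaks and 1, 2 and 3 ES lines. This low share was seen at every level of significance. Among regions with a least score of 50 to 65, 13 of 114 iPS+ES- regions (11.4%) had a MEF peak, against 44.4% with 1 ES line and 63.2% with 3. At scores of 65 to 100 it was 16 of 92 (17.4%) against 51.9% and 69.7%, and at 100 to 200 it was 3 of 16 against 71.0% and 84.6%. Whether a MEF culture has a peak is also a matter of its own peak calls: MEF replicate 2, with the most peaks, held 26 of the 33 regions with any MEF peak, replicate 1 held 13 and replicate 3 held 7. Without MEF replicate 3 the number of regions with peaks of all remaining cultures was 9 in place of 4. The low share of MEF peaks rested on the peak lists as deposited: with the same number of peaks in every sample, 77 of 318 regions had no MEF peak and 45 had peaks of all 3 cultures.

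**Figure D2:**
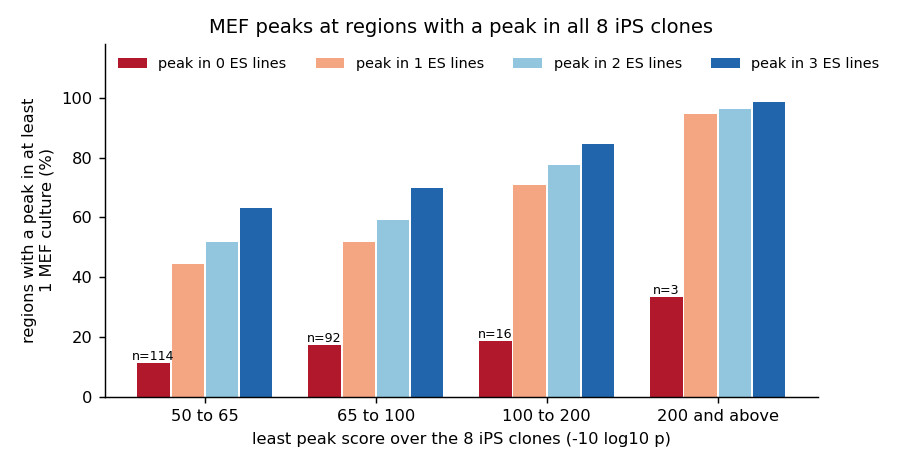
Share of regions with a peak in at least 1 of 3 MEF cultures (y axis, %) among regions with a peak in all 8 iPS clones, by the least score over the clones (x axis) and the number of ES lines with a peak (bars). In every score class the regions without an ES peak have the lowest share, from 11.4% at scores of 50 to 65.

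More than one in 4 of the iPS+ES- regions belonged to a single family of sequence. When 2 regions were joined if their 300-bp windows had at least 20 stretches of 24 bases in common on either strand, 61 of the 225 regions (27.1%) formed a single group. Counted by the same rule against these 61, 15.8% of regions with 1 ES line, 4.87% with 2, 1.63% with 3 and 5.99% of all 47835 regions shared the sequence. Since the group was built from the iPS+ES- regions, the shares are a description. The stretch found most often is printed here because it marks the family.
Shared stretch of 24 bases: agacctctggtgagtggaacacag
It was present in 53 of the 225 windows (23.6%) and in 3.08% of all windows, and it occurs 4473 times on chromosomes 1 to 19 of the reference, both strands counted. The windows near Steap4, near Snrpn and in Cacnb2 hold it exactly. That near Snap91 belongs to the group but does not hold this exact stretch. The group was spread over 16 chromosomes, with 53 regions between genes and 8 in introns. In 59 of its 61 regions the sequence matched itself best at a shift within 5 bp of 200 bp (median 199 bp, searched from 50 to 400 bp). This held for 11 of the 164 other iPS+ES- regions. The match was weak in part of the group. Among the 59 regions the share of bases equal at the best shift lay between 31.6% (near Sel1l) and 73.7% (near Lrrc4c). The Sox2 region, outside the group, had 32.2% at its own best shift. The median window of the group had 14 CpGs and 61.3% GC, and its 24-base stretches a median of 380 copies in the reference. No repeat annotation was used, and the family is not named here. How tags that fit several places were mapped is not given in the sources used here.

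The higher share of this family was seen in each class of scores up to 200. For least scores of 50 to 65, 24 of 114 iPS+ES- regions (21.1%) belonged to it against 3.10% of the other regions, at 65 to 100 30 of 92 (32.6%) against 3.98%, and at 100 to 200 7 of 16 against 4.07%. The 3 regions above 200 did not. Within the family, a MEF peak was seen in 9 of the 61 regions without an ES peak (14.8%), in 79.0% of those with 1 ES line and in 93.0% of those with 3. Repetition in general differed little over all regions but more at like scores. Windows with a median of at least 100 reference copies made up 22.2% of iPS+ES- regions and 20.5% of all regions, and single-copy windows 54.2% and 61.1%. For least scores of 50 to 65 the share with at least 100 copies was 19.3% against 8.83% of the other regions, at 65 to 100 23.9% against 9.44%, and at 100 to 200 37.5% against 13.04%. Of the iPS+ES- regions with a summit in an exon of a protein-coding gene, 32 of 34 (94.1%) were single-copy, close to the 95.4% of all such regions with 8 iPS peaks.

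**Figure D3:**
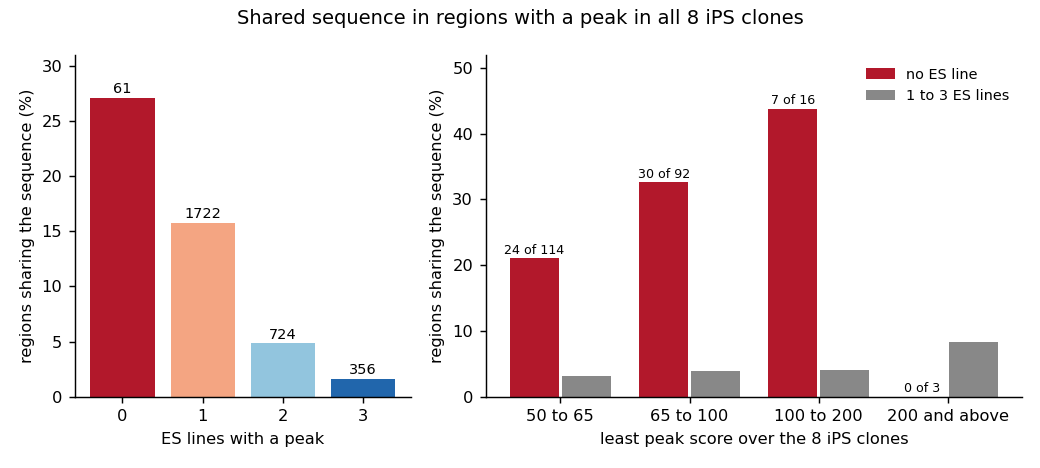
Share of regions with a peak in all 8 iPS clones that share the sequence of the largest group (y axes, %), by the number of ES lines with a peak (left, number of regions above the bars) and by the least score (right, regions with no ES peak against regions with 1 to 3). The share falls from 27.1% with no ES line to 1.63% with 3 lines, and 7 of the 16 regions with scores of 100 to 200 and no ES peak belong to the group.

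In the annotation, 125 of the 225 summits (55.6%) lay between genes, 60 (26.7%) in introns of protein-coding genes, 34 (15.1%) in their exons and 6 in non-coding genes. Over all regions with 8 iPS peaks the shares were 47.4%, 27.4% and 22.6% for the first 3. Within 1 kb of a gene start lay 6 summits (2.67%, against 1.79%). The median distance to a gene start was 52.3 kb, against 44.0 kb. The regions were scattered, with 6 of 225 within 100 kb of another, and no chromosome held more than 18. In 216 of them each clone had a single peak, and in 204 the 8 summits lay within 200 bp of one another.

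The exons of all 4 reprogramming factor genes were among the iPS+ES- regions, 3 of them among the 4 strongest. Sox2, Pou5f1 (Oct3/4) and Klf4 encode transcription factors of the pluripotency network, and Myc a transcription factor that drives growth. The summits of all 8 clones lay inside exons of these genes. At Sox2 (chr3:34548945-34550767, in its single exon) the tags per 1000000 filtered tags (RPM) were 72.3, 73.7, 19.6 and 9.65 in the Aid+/+ clones and 37.7, 27.8, 9.17 and 29.9 in the Aid-/- clones. The highest values were those of the 2 clones of the first series, and the genotypes overlapped. The Myc region (chr15:61818708-61820326) had 30.5, 60.03, 28.4 and 17.5 in Aid+/+ and 4.03, 27.1, 32.01 and 11.5 in Aid-/- clones. In Klf4 (chr4:55542793-55544124) the values were 6.03, 8.51, 10.7 and 6.75 in Aid+/+ and 1.31, 31.3, 3.46 and 9.34 in Aid-/- clones. Here a single clone, Aid-/- replicate 2, was 23.9 times as high as Aid-/- replicate 1. At Pou5f1 (chr17:35642542-35643661) they were 5.47, 11.9, 8.15 and 6.23 in Aid+/+ and 3.66, 7.58, 14.4 and 4.63 in Aid-/- clones, within a narrower range than at the other factors. Tags from the retroviral cDNAs and from the resident exons have the same sequence and cannot be told apart here. A further Klf4 region over an exon had a peak of ES replicate 3, and a further Myc region had peaks of 2 ES lines and all 3 MEF cultures, so that neither met the rule. A further Pou5f1 region (chr17:35645918-35647344) had peaks of only Aid+/+ replicate 2 (86 tags) and Aid-/- replicate 2 (12 tags), and did not meet it either. The nearest ES peak lay 0.392 kb from the Myc region, 1.52 kb from Klf4, 5.12 kb from Sox2 and 14.04 kb from Pou5f1.

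Variation between clones was greatest at Klf4, Sox2 and Myc. After TMM normalisation the SD of the log2 tag count over the 8 clones was 1.36 at Klf4, 1.25 at Sox2 and 1.15 at Myc, the 3 highest of the 225 regions, and 0.582 at Pou5f1, the 27th highest. The median was 0.428 over the 225 regions and 0.344 over all regions with 8 iPS peaks. Peaks of like significance varied as much in other regions. For least scores of 50 to 65 the median SD was 0.447 in iPS+ES- regions and 0.483 in the others, at 65 to 100 it was 0.391 and 0.442, and at 100 to 200 0.356 and 0.362. The 3 regions above 200, at Sox2, Pou5f1 and near Ezh2, were the exception, with 0.582 against 0.287. The highest clone exceeded the lowest by over 4 times in 11 of the 225 regions (4.89%) and in 3.56% of all regions.

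Beyond the factor genes, the strongest regions with no MEF peak had low values. An exon of Glis1, which encodes a zinc finger transcription factor, held the strongest one, a single-copy window (chr4:107287393-107287938). Its RPM were 1.82, 3.18, 2.98 and 3.22 in Aid+/+ and 1.88, 2.83, 3.76 and 1.66 in Aid-/- clones. Between genes, the region 155 kb from Steap4 (chr5:7804593-7805775) had 2.58 to 4.15 in Aid+/+ and 2.72 to 4.96 in Aid-/- clones. That 689 kb from Pvrl3 (chr16:47187838-47188529) had 2.01 to 3.22 and 1.97 to 3.16, the narrowest range among them. The region 9.82 kb from Vmn1r16, a vomeronasal receptor gene (chr6:57283448-57284329), had 1.57 to 4.57 and 1.92 to 3.46. Like ranges were found 9.65 kb from E330020D12Rik (2.32 to 7.99 over the 8 clones), 1033 kb from Gm9008 (1.57 to 3.31) and in an intron of Cacnb2, a calcium channel subunit gene (1.78 to 3.96). In all of these the genotypes overlapped. Those near Steap4, E330020D12Rik and Gm9008 and in Cacnb2 belonged to the family of shared sequence. The windows near Pvrl3 and Vmn1r16 had a median of 2 reference copies each, so that their signal can include that of another site.

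**Figure D4:**
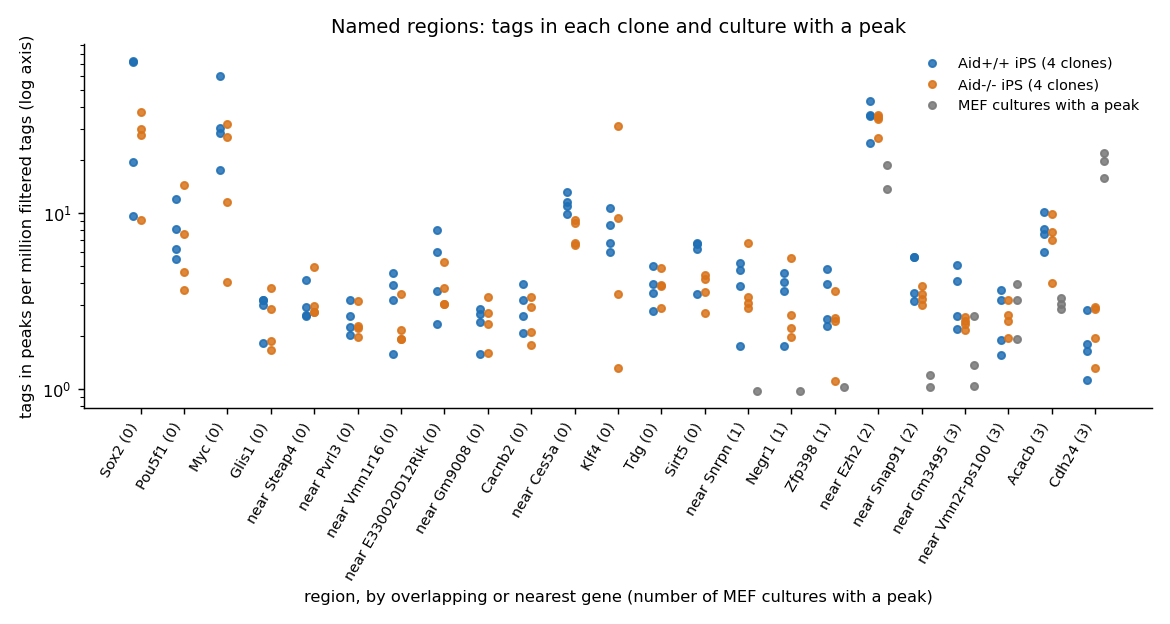
RPM, the tags in peaks per 1000000 filtered tags (y axis, log scale) at the 23 named regions (x axis, with the number of MEF cultures with a peak in brackets), 1 point per Aid+/+ iPS clone (blue), Aid-/- iPS clone (orange) and MEF culture with a peak (grey). The points of Sox2, Myc and Klf4 are spread widest, and the MEF points lie above the iPS points at Cdh24.

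Of the 29 regions with peaks of 1 or 2 MEF cultures, the strongest lay 65.3 kb from Ezh2, which encodes a histone methyltransferase (chr6:47610600-47611846). Its window had a median of 17 reference copies. The RPM were 24.9, 43.1, 35.6 and 36.02 in Aid+/+ clones, 35.4, 36.2, 34.4 and 26.6 in Aid-/- clones and 13.7 and 18.7 in MEF replicates 1 and 2. Both MEF values were below every clone, on a scale on which most regions were lower in MEFs, as given next. Its nearest ES peak lay 0.77 kb away. At the region 60.6 kb from Snap91 (chr9:86836063-86836852) the clones had 3.00 to 5.61 and the MEF cultures 1.02 and 1.20. The region 73.9 kb from the imprinted gene Snrpn (chr7:67052548-67053499) and that in an intron of Negr1 had 1.76 to 6.76 and 1.76 to 5.56 in the clones, and 0.971 and 0.969 in their only MEF peak, of MEF replicates 2 and 1. The regions near Snap91 and Snrpn and in Negr1 belonged to the family of shared sequence. Every MEF value in these 4 regions was below those of the clones. On the same scale of filtered tags, the median log2 difference of MEFs from clones was -1.28 over the 21461 regions with peaks of all 8 clones and all MEF cultures, and 82.2% of those were called lower in MEFs (edgeR), so that a lower value is the general case.

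The 4 regions with peaks of all 3 MEF cultures differed among themselves. The question here was whether fibroblasts and clones carried the same amount of signal. Over an exon of Cdh24, a cadherin gene that overlaps CT009512.1 (chr14:55250363-55252456), the MEFs had 19.6, 15.8 and 21.9 RPM and the 8 clones 1.12 to 2.91. All MEF cultures were above all clones. The difference was 4.51 ± 0.236 (SE) on the log2 scale (edgeR quasi-likelihood test, 11 samples, BH-adjusted p = 3.03e-10). These are tags summed over the region. The fold enrichment differed far less, at 16.7 to 18.7 in MEFs and 7.35 to 14.7 in the clones. The window near the pseudogene Vmn2r-ps100 (25.4 kb, chr13:66073575-66074514) had a median of 4 reference copies, so that its signal can include that of other sites. Here the MEFs had 3.93, 3.20 and 1.92 RPM and the clones 1.56 to 3.64. The groups overlapped on this scale, and after TMM normalisation the MEFs were higher by 1.41 ± 0.252 (SE, log2; edgeR BH-adjusted p = 0.000277). This call was lost with the library size of the file header (0.22, edgeR adjusted p = 0.475), a scaling that moved the median of all regions tested to -1.28. The MEF values 193 kb from Gm3495 (chr5:16684976-16685880) were 2.60, 1.37 and 1.04, and the clones had 2.16 to 5.09, with overlap (log2 difference 0.41 ± 0.289, SE; edgeR adjusted p = 0.243). It was called lower in MEFs with that scaling (-0.78, edgeR adjusted p = 0.0236) and with fold enrichment as the measure (-1.07, limma adjusted p = 0.00262). In an exon of Acacb, which encodes acetyl-CoA carboxylase 2 (chr5:114644682-114646043), the MEFs had 3.26, 3.03 and 2.86 and the clones 4.01 to 10.1, without overlap in RPM, while the TMM-normalised difference was -0.06 ± 0.245 (SE; edgeR adjusted p = 0.848). With the header's library size it was -1.30 (edgeR adjusted p = 8.97e-05). Hence 2 of the 4 regions were called after TMM normalisation, both higher in MEFs. With the header's library size 1 was called higher and 2 lower, and with fold enrichment 1 higher and 1 lower, so that the direction of the calls depended on the scaling. After TMM normalisation 51.2% of the 21461 regions with peaks of all 8 clones and all MEF cultures were called and 24.9% were called higher. A share of 2 in 4 is near the background of calls in either direction. Both calls were higher in MEFs, where the background is 24.9%, and 4 regions are too few to compare shares.

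The genotypes of the iPS clones did not differ at any iPS+ES- region past the threshold. The rule asked for a peak in every clone and used the genotype in no other way. Regions whose peak was missing in clones of either genotype were therefore left out beforehand. The tag counts of the 4 Aid+/+ and 4 Aid-/- clones were compared, which can show only differences in level between called peaks. None of the 225 regions was called (edgeR quasi-likelihood test, BH-adjusted p under 0.05), where 0.00209% of all 47835 regions were called, which is 1 region. The other settings tried also called none, although DESeq2 gave an adjusted p for only 75 of the 225 and a minimum mean of 20 tags left 208. At an unadjusted p under 0.05 there were 3 of the 225 (1.33%), against 3.63% of all regions, 2 of 225 by DESeq2 and 8 by limma. This count rose to 19 without Aid+/+ replicate 1 (8.44%, against 11.02% of all regions), to 11 without Aid-/- replicate 3 (4.89% against 4.24%) and to 18 with the clone series as a term (8% against 6.92%). The median log2 difference of Aid-/- from Aid+/+ clones was -0.06 (quartiles -0.26 and 0.10) in the 225 regions and -0.00251 over all regions. It was 0.33 with the processing run as a term and -0.37 with the clone series as a term, so that its sign depended on the term, while the median over all regions was 0.02 and -0.00766. With the run as a term the contrast rests on run A, with Aid+/+ replicate 1 against Aid-/- replicates 1, 2 and 4. With the series as a term it rests on Aid+/+ replicates 3 and 4 (run B) against Aid-/- replicates 1 and 2 (run A). Genotype and run cannot be told apart there. In the main fit, run B held only Aid+/+ clones and run C only an Aid-/- clone.

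The region with the smallest p lay 17.0 kb from Ces5a, a carboxylesterase gene (chr8:95989526-95991587). Its RPM were 9.93, 11.6, 10.98 and 13.2 in Aid+/+ clones and 6.75, 6.57, 9.17 and 8.81 in Aid-/- clones, and the genotypes did not overlap on this scale. After TMM normalisation they did, with Aid-/- replicate 4 at 22.98 and Aid+/+ replicate 3 at 22.02. Its window had a median of 43.5 reference copies. The log2 difference was -0.47 ± 0.185 (SE; edgeR adjusted p = 1.00), and -0.00580 with peak length as an offset. The next lay over an exon of Sirt5, which encodes a mitochondrial sirtuin (chr13:43471747-43472724). Here the values were 3.46, 6.28, 6.74 and 6.64 against 3.56, 4.45, 4.21 and 2.71, with a difference of -0.54 ± 0.238 (SE; edgeR adjusted p = 1.00), and of -0.10 with the processing run as a term. With that term the Aid+/+ side rests on a single clone. At the factor genes it was -0.71 ± 0.554 for Sox2, -0.85 ± 0.455 for Myc, 0.64 ± 0.593 for Klf4 and -0.06 ± 0.317 for Pou5f1 (SE, log2), each smaller than 2 SE (edgeR adjusted p = 1.00 for each).

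**Figure D5:**
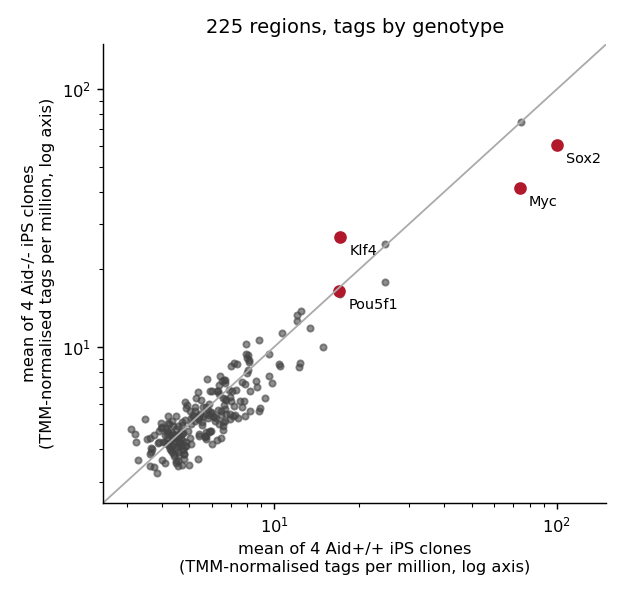
Mean TMM-normalised RPM in the 4 Aid-/- iPS clones (y axis, log scale) against the 4 Aid+/+ iPS clones (x axis, log scale) for the 225 regions, with the 4 factor genes in red and the line of equality in grey. No region was called between genotypes, and the points lie about the line.

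Lists of genes were looked up at the regions, counting a region over a gene or within 1 kb of its start. Over all regions with 8 iPS peaks, 0.470% were iPS+ES-. At the 4 reprogramming factors 4 of 6 such regions were, and at 25 pluripotency genes 3 of 9, which were those at Sox2, Klf4 and Pou5f1. At genes of the DNA methylation machinery it was 1 of 32, over an exon of Tdg, the thymine DNA glycosylase that acts in base excision (chr10:82110866-82111839). Tdg had 2.76 to 5.02 RPM in the 8 clones, and its window had a median of 2.5 copies in the reference, so that its signal can include that of another site. At the Zfp zinc finger genes it was 1 of 297, in an intron of Zfp398 with 1.11 to 4.77 RPM in the clones and 1.03 in MEF replicate 2. No iPS+ES- region lay at imprinted genes (0 of 92), fibroblast and mesenchymal genes (0 of 65), olfactory receptor genes (0 of 52), vomeronasal receptor genes (0 of 41), clustered protocadherin genes (0 of 31), germline genes (0 of 30), early lineage regulators (0 of 15) or Hox genes (0 of 1). Counts of 0 at lists of this size are near the background of 0.470%.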

How the data were processed

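MBD-seq peak lists of 14 samples (8 iPS clones, 3 ES lines, 3 MEF cultures) were analysed. As described in the labels and the methods, tags of 74 or 75 bp were mapped to mm9 with BWA 0.5.9rc1, and the authors called peaks per sample with MACS without a control (per the file headers, version 1.4.1 or 1.4.0rc2, p cutoff 1e-05, at most 2 tags per position). The deposited values of each peak were the tag count, the p-value as −log10 multiplied by 10, and the fold enrichment, a ratio to the local background. From these, peaks were merged (1 bp), tags summed per region and sample, and tags per 1000000 filtered tags (RPM) computed from the headers. Because a sample without a peak has no value, levels below the threshold are unknown.

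Counts were tested with the edgeR quasi-likelihood test (4.0.16, R 4.3.3; TMM, BH over all regions) for the genotypes over 47835 regions, and for MEFs against the mean of both iPS groups over 21461. SE is the log2 difference over the root of the F value. On simulated counts the median estimate of the planted changes lay near the planted size. The changes were planted among all regions tested, and recovery at the low tag counts of the iPS+ES- regions was not tested. Alternatives used DESeq2 1.42.0, limma 3.58.1 on log2 fold enrichment, the header's library size, a mean of at least 20 tags, peak length as an offset, run or clone series as a term, and leaving out each sample. Genes came from GENCODE vM1 and sequence from NCBI build 37. Reference copies are the exact matches of a window's 24-base stretches (every 5 bases) on chromosomes 1 to 19. Only the MEF numbers come from the labels, the others are in accession order, and they pair nothing. The study's methods describe MEFs made from individual embryos. Which embryo each culture or clone came from is not given, so p-values measure the spread between clones and cultures. The regions, gene lists and the rule for named regions (the highest least scores per class: 10 with no, 10 with 3 and 4 with 1 or 2 MEF cultures; the factor exons; the 2 smallest genotype p; up to 3 per gene list) were chosen with earlier results of these data known, and the search for shared sequence was added after values had been seen. The result of 1 gene list is not reported here.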

Additional observations from a re-analysis of the deposited data

Results flagged for a closer look

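In 4 of 46 groups of 4 clones at the 23 named regions, 1 clone stood apart from the other 3 by more than Dixon's 95% critical value, which chance does in about 1 in 20 groups. In 3 of them the clone was Aid-/- replicate 3, which has the fewest filtered tags and is the only iPS clone of run C. Over all 225 regions its median was 3.31 RPM, against 2.06, 2.02 and 1.83 in the other Aid-/- clones, so that it was high across the set and not at these regions alone. It had 4.96 RPM near Steap4 (the other 3 clones 2.72 to 2.97), 3.46 near Vmn1r16 (1.92 to 2.16) and 6.76 near Snrpn (2.88 to 3.34). The fourth was Aid+/+ replicate 1, with 3.46 RPM over the Sirt5 exon (6.28 to 6.74).

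Chromosome X was not part of the rule. On it, 23 of the 1769 regions with a peak of all 8 iPS clones had no ES peak (1.30%, against 0.470% on chromosomes 1 to 19), 17 of them with no MEF peak, 5 with 1 and 1 with 2 MEF cultures. The difference was not tested.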

How the results depend on the processing

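The number of iPS+ES- regions depended on single libraries and on the threshold. Leaving out 1 sample gave 225 to 10996 regions, 193 to 4054 without a MEF peak and 4 to 2101 with peaks of all MEF cultures, the highest each time without ES replicate 3. Other libraries that moved a count by over 1.5 times were ES replicate 1 (345 regions, 10 with all MEF cultures), Aid+/+ replicate 1 (382), Aid-/- replicate 4 (400) and MEF replicate 3 (9 with all remaining MEF cultures). With the same number of peaks in every sample, 77 regions had no MEF peak and 45 had peaks of all 3 cultures. Stretches common to all 8 clones in place of merged regions gave 8 with all 3 MEF cultures. With iPS and MEF peaks at p of at most 1e-10 there were 19 regions, 17 without a MEF peak and 0 with 3, and with all peaks at that threshold 2 with 3 MEF cultures. The cause was not tested.

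The calls between genotypes (0) and between MEFs and iPS clones (2) kept their number under all planned settings but the header's library size, with 3 of 4 called between MEFs and iPS clones, and the 2 called by limma were not both the same regions. Log2 differences between genotypes changed sign for Sox2 with the clone series as a term (1.32) and for Pou5f1 by limma (0.0011). With the series as a term, genotype and processing run cannot be told apart in the clones compared. Leaving out 1 clone moved them between -0.45 and 0.17 for Pou5f1 and between -0.60 and 1.01 for Klf4. The difference of MEFs from iPS clones became -0.0898 near Vmn2r-ps100 by limma, and near Gm3495 -0.78 with the header's library size, -0.0100 with peak length as an offset and -1.07 by limma. For Acacb it lay between -0.19 and 0.0491 when 1 sample was left out. No paired analysis was possible because only the MEF cultures carry replicate numbers in the labels. The median of 24.5 tags per clone limits the precision of each difference; the size detectable at this depth was not tested.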
